A study of Rattus norvegicus with 12 samples.

Results

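The 5 rows described here are those of the mitochondrial tRNAs for tryptophan (Trnw), alanine (Trna), asparagine (Trnn), cysteine (Trnc) and tyrosine (Trny), which stand next to each other in the deposited count table. They are 5 of its 24648 rows and 5 of its 22 mitochondrial tRNA rows. The cluster was chosen by measured values of these libraries: Trnn passed the threshold for the maternal diet, within set 1 of the libraries and averaged over both sets. The other 4 rows were taken as its neighbours. Diet values of these rows in set 1 and over both sets are therefore given as a description, without a p-value.

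RNA-seq was made from skeletal muscle of male rats aged 540 days. The dams had received a control diet, or a diet with 6% protein through pregnancy and lactation. Strain, dam and litter are not given in the labels used here, nor whether libraries of a group came from separate animals, so a p-value here reflects the variation among the libraries, which may be technical. By title number there were 3 control libraries (3, 8, 9) and 3 restriction libraries (12, 13, 15) in set 1, and 3 control (23, 28, 29) and 3 restriction libraries (32, 33, 35) in set 2. No label ties a muscle to a library, although the series text names soleus and extensor digitorum longus. Myh7, the slow myosin heavy chain, lay between 31164 and 38328 CPM (counts scaled to library size, with TMM factors) in set 1 and between 702 and 2588 CPM in set 2. Myh4, the fast type IIB chain, lay between 4.97 and 395 CPM in set 1 and between 11039 and 47507 CPM in set 2. Set 1 is thus the slow set and set 2 the fast one.

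Mitochondrial DNA encodes the tRNAs with which mitochondria make their own subunits of the respiratory chain, on which oxidative muscle fibres depend. Both strands are transcribed into long precursors, and tRNAs are cut out of them by RNase P at the front end and by the nuclease ELAC2 at the back end, which also frees the neighbouring mRNAs. In mammals Trna, Trnn, Trnc and Trny form a run of genes on one strand, and Trnw lies beside them on the opposite strand. The origin at which replication of the light strand starts sits between Trnn and Trnc.

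The libraries do not mark strand, so a row holds reads from either strand of its interval. Whether these came from mature tRNA or from a longer transcript was not tested. Nuclear copies of mitochondrial sequence exist, and how the counting treated reads with several matches is not given in the sources used here, so all these rows are uncertain in that respect. Row lengths were not used here, so levels are compared between libraries. Counts, shares and ratios that set rows side by side are not read as relative amounts of RNA.

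Total counts ran from 22829692 to 38313704 per library. In set 1 the 22 mitochondrial tRNA rows together took 2.22% to 2.88% of the counts in controls and 4.12% to 4.77% in restriction libraries. In set 2 they took 2.54% to 5.83% and 1.62% to 3.10%, the highest value being that of control 23, which stood apart from the other controls of its set at 2.54% and 3.29%. Total counts in set 1 were 26506707 to 38313704 in controls and 22829692 to 26037169 in restriction libraries. Both measures separated the diets of set 1. So did the sum of 8 fast fibre markers (2149 to 4981 CPM in controls, 5319 to 6402 CPM in restriction libraries). Singly, 4 of these 8 markers had a set 1 diet value below 0, and none of the 8 was called. The 2 mitochondrial rRNA rows together separated the diets of set 1 as well. They took 0.246% to 0.302% of the counts in controls and 0.328% to 0.384% in restriction libraries there. The part of these measures in the values below was not tested. Trns1, the row of a serine tRNA, held 69.4% to 86.4% of the mitochondrial tRNA counts in each library.

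Trnn, which carries asparagine, was high in the 3 controls of set 1 and low in the other 9 libraries. It measured 8.60, 10.6 and 16.4 CPM in controls 3, 8 and 9, from 256, 286 and 620 counts. Restriction libraries 12, 13 and 15 of the same set held 0.793, 0.768 and 1.10 CPM, from 20, 20 and 27 counts. The groups did not overlap, an order found in 9.60% of tested rows. The lowest control was several times the highest restriction library. Exact 95% Poisson intervals were 226 to 289 counts in control 3 and 17.8 to 39.3 counts in restriction 15. These intervals cover counting error only. In set 2, controls 23, 28 and 29 held 1.88, 1.37 and 2.40 CPM and restriction libraries 32, 33 and 35 held 1.48, 1.17 and 1.79 CPM. There the diets overlapped.

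In edgeR's fit over all rows the log2 fold change of Trnn, restriction minus control, was -3.74 ± 0.37 (SE, n = 3 against 3) in set 1, which is 13.3-fold lower in restriction libraries. Group means were 11.9 ± 4.06 and 0.886 ± 0.184 CPM (SD). Of 4 tested members, Trnn alone was called in set 1, where 0.00703% of the 14225 tested rows were called. That contrast chose the cluster. Averaged over both sets the value was -2.04 ± 0.25, and 0.00703% of rows, Trnn alone, were called there too. That second call was lost without control 9, restriction 12 or restriction 13, and in limma-voom. In set 2, whose libraries entered the choice through that average, it was -0.35 ± 0.34 (edgeR adjusted p = 0.76). No row was called in set 2 (0% of 14225). In bulk muscle, less RNA per cell and fewer cells holding it cannot be told apart.

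**Figure D1:**
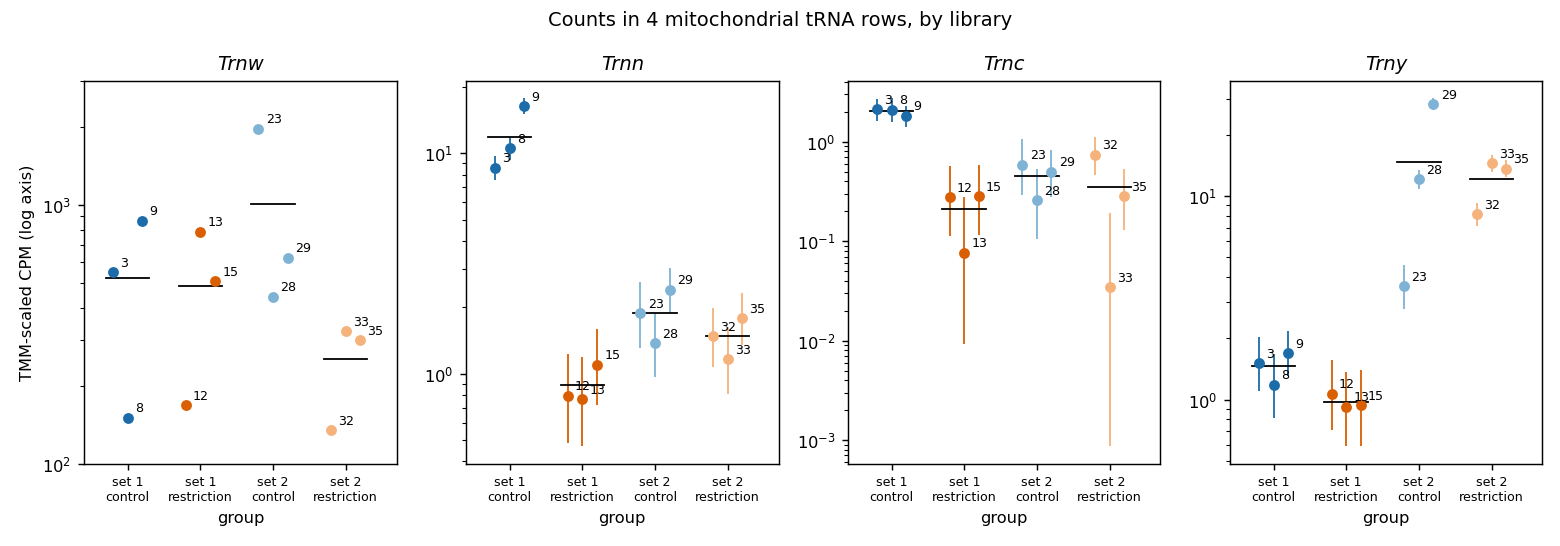
Each point is 1 library, labelled by its title number, with TMM-scaled CPM on a log axis (a separate scale in each panel). Vertical bars are exact 95% Poisson intervals of the count, smaller than the points for Trnw, and black lines are means of 3 libraries. Trnn and Trnc are high in the 3 controls of set 1 alone, Trny is high in set 2, and Trnw spreads widely within every group.

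Trnc, which carries cysteine and lies across the replication origin from Trnn, showed the same order of groups at lower counts. The controls of set 1 held 63, 57 and 69 counts, or 2.12, 2.10 and 1.82 CPM. Set 1 restriction libraries held 7, 2 and 7 counts, or 0.278, 0.0768 and 0.285 CPM. The diets did not overlap in set 1, an order found in 9.60% of tested rows. The controls were close to each other, at 2.02 ± 0.165 CPM (SD, n = 3). Set 2 controls held 11, 7 and 15 counts and set 2 restriction libraries 22, 1 and 9 counts, between 0.0343 and 0.738 CPM. The 2 diets overlapped in set 2, where restriction 33 with its single count was the lowest library of all 12.

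The log2 fold change of Trnc was -3.22 ± 0.85 (SE) in set 1, or 9.31-fold lower in restriction libraries, and -1.78 ± 0.59 over both sets. Its set 2 value of -0.34 ± 0.81 did not pass (edgeR adjusted p = 0.92). That value was 0.19 without restriction 33 and -1.46 without restriction 32.

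Trnn and Trnc moved together across libraries. After each set was centred on its own mean, their log2 CPM correlated with Pearson's r of 0.86 over the 12 libraries, which share depth and scaling. This was the highest value for either row among the tested mitochondrial tRNA rows. The next for Trnn was Trnr (0.44) and the next for Trnc was Trni (0.40). The relation rests mostly on the gap between the set 1 controls and the rest. Counts of Trnn per count of Trnc were 4.06, 5.02 and 8.99 for the controls of set 1 and 2.86, 10 and 3.86 for its restriction libraries. The ratio thus overlapped between diets. The restriction ratios rest on 7, 2 and 7 counts of Trnc, so the overlap cannot show whether both rows differed in proportion. In set 2 the ratio ran from 2 to 34.

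**Figure D2:**
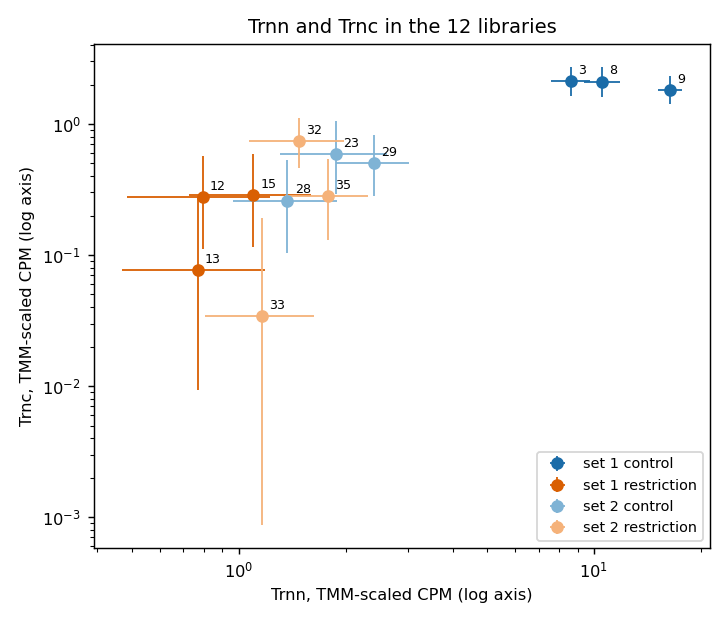
Each point is 1 library, with Trnn on the horizontal and Trnc on the vertical axis, both in TMM-scaled CPM on log axes, and bars are exact 95% Poisson intervals. The 3 controls of set 1 lie apart at the upper right, above 8.60 CPM of Trnn and 1.82 CPM of Trnc, and the other 9 libraries lie together at the lower left.

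All rows were then searched for this pattern, which was chosen after the values of Trnn and Trnc were seen. A row with each set 1 control above each of the other 9 libraries occurred for 2.45% of tested rows. With each control at least 2 times each other library there were 12 such rows, or 0.0844% of 14225. Both Trnn and Trnc were among them, with the lowest control at 3.58 and 2.47 times the highest other library. Of the remaining 10 rows, those with a gene symbol were Nox1, Ccdc42, Gsta5, Myo3b, Nr4a2, Npffr1 and Layn. None of these lies in mitochondrial DNA.

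By set-centred correlation over the 12 libraries, the rows with a symbol most like Trnn were Nox1 (0.97), Ppp2r5e (0.94), Lrrfip1 (0.91), Gripap1 (0.90) and Gsta5 (0.89). These values rest mostly on the gap between the diets of set 1, on which Trnn was chosen. Gsta5 had 0 CPM in both groups of set 2. Lrrfip1 measured 238 ± 20.6 CPM (SD) in the controls of set 1, against 124 ± 2.94 CPM under restriction. Its set 2 means were 61.3 and 67.5 CPM. Nox1 measured 0.657 ± 0.203 and 0.0271 ± 0.0470 CPM in set 1 and had no count in set 2. For the summed CPM of the other 4 members, nearly all of it Trnw, the most alike were Zbtb8os (0.96), Taldo1 (0.89), Rab30 (0.89), Ptpn22 (0.89) and Cfap36 (0.88).

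Trny, which carries tyrosine, was higher in set 2 in both diets. In set 1 each restriction library lay below each control, as for 9.60% of tested rows. In set 1 the controls had 1.51, 1.18 and 1.69 CPM and the restriction libraries 1.07, 0.921 and 0.936 CPM. Set 2 controls held 3.59, 12.1 and 28.2 CPM and set 2 restriction libraries 8.15, 14.5 and 13.6 CPM. Every set 2 library lay above every set 1 library, as for 8.97% of tested rows. Control 23 was the lowest of set 2 and control 29 the highest, with 67 and 845 counts.

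The log2 fold change of Trny, set 2 minus set 1 averaged over both diets, was 3.47 ± 0.39 (SE), which is 11.1-fold higher in set 2 (edgeR adjusted p = 1.07e-05). It was 3.32 ± 0.54 in control libraries and 3.63 ± 0.57 in restriction libraries. Without control 23 it was 3.69, and without control 29 it was 3.03. By diet, each set 1 restriction library lay below each control, an order shared by 9.60% of tested rows. The log2 fold change was -0.59 ± 0.56. In set 2 the diets overlapped (-0.28 ± 0.48, edgeR adjusted p = 0.88), and the sign depended on control 29, with 0.62 when it was left out.

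Trnw, which carries tryptophan, differed more within groups than between them in set 1. Controls 3, 8 and 9 measured 550, 150 and 866 CPM and restriction libraries 12, 13 and 15 measured 168, 786 and 505 CPM. The groups overlapped fully, with a log2 fold change of -0.10 ± 0.65 (SE). Counts of 4015 to 36600 per library leave little counting error, so this spread lies between libraries. In set 2 the controls held 1960, 441 and 623 CPM and the restriction libraries 135, 325 and 299 CPM. Each restriction library there lay below each control, as for 5.72% of tested rows, and the log2 fold change was -2.00 ± 0.68 (edgeR adjusted p = 0.53). Without control 23, the highest library, it was -1.07. In the same libraries 5 summed red blood cell markers lay between 601 and 1960 CPM in controls and between 297 and 394 CPM under restriction. Of these markers 4 were tested, and all 4 had a set 2 diet value below 0, none of them called. Their part in the Trnw values was not tested. Averaged over both diets, Trnw did not differ detectably between the sets, at 0.00 ± 0.46 (edgeR adjusted p = 0.996). That average joined opposite values, 0.95 ± 0.66 in control libraries and -0.94 ± 0.66 in restriction libraries. Neither passed (edgeR adjusted p = 0.345 and 0.305).

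Trna, which carries alanine and lies between Trnw and Trnn, was nearly without counts. The row held 14 counts over all 12 libraries (exact 95% Poisson interval 7.65 to 23.5), with 4 each in control 3 and restriction 13, at most 2 elsewhere and 0 in 5 libraries. It did not pass the filter on low counts. A count of 0 allows up to 0.0793 to 0.161 CPM, depending on the library, at 3 counts. No difference between diets or sets was detectable at this depth.

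As a share of all mitochondrial tRNA counts, Trnn and Trnc were lower in set 1 restriction libraries by more than in CPM, since the total of the 22 rows was higher there. Per 1000 mitochondrial tRNA counts, Trnn held 0.426, 0.400 and 0.561 in the controls of set 1 but 0.0161, 0.0202 and 0.0278 in its restriction libraries. The log2 ratio of restriction over control means was -4.43 for Trnn and -4.05 for Trnc in set 1. Trny had -1.35 there on this scale and Trnw -0.76. In set 2 the ratios were 0.33 for Trnn, 0.75 for Trnc and 0.08 for Trny, against negative values in CPM for all 3, so their direction in set 2 depends on the scale. The value of Trnc in set 2 also changed sign without restriction 32, to -0.99, and that of Trny without control 23, to -0.45. Trnw had -1.11 in set 2.

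Among the remaining mitochondrial tRNA rows, 10 of 15 tested rows had a set 1 diet value above 0 and 5 had one below 0, against 0 and 4 of the 4 tested members. In 3 of 4 tested members each restriction library lay below each control, against 9.60% of all tested rows. This was so in 0 of 15 tested rows outside the cluster, while in 6 of 15 each restriction library lay above each control, against 7.97% of all rows. The median log2 fold change in set 1 was 0.42 over those 15 rows, from -0.29 (Trng) to 2.58 (Trnq), beside 0.00 over all rows. Over the 4 tested members it was -1.90. Set 1 chose the cluster, so these counts describe it and test nothing. Of the 15 outside rows edgeR called 0 for diet in either set, with 3 at an unadjusted p under 0.05 in set 1 (7.54% of all rows) and 5 in set 2 (8.59% of all rows), and DESeq2 and limma-voom also called 0.

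The rows on either side of the cluster did not follow Trnn. Trnm, which carries methionine and precedes Trnw among the tRNA genes, had a log2 fold change for diet of 0.11 ± 0.28 (SE) in set 1 and -0.63 ± 0.28 in set 2 (edgeR adjusted p = 0.96 and 0.57). Trns1, which follows Trny, had 0.86 ± 0.32 and -0.75 ± 0.32 (edgeR adjusted p = 0.56 in both sets). The rRNA rows mt-Rnr1 and mt-Rnr2 had 0.53 ± 0.23 and 0.06 ± 0.19 in set 1, opposite in sign to Trnn, and neither passed (edgeR adjusted p = 0.62 and 0.97). In mt-Rnr1 each set 1 restriction library lay above each control, as for 7.97% of tested rows. The ranges were 2118 to 2309 CPM and 1197 to 1684 CPM. In mt-Rnr2 the diets of set 1 overlapped. In set 2 the 2 rRNA rows had -0.26 ± 0.23 and -0.29 ± 0.19.

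**Figure D3:**
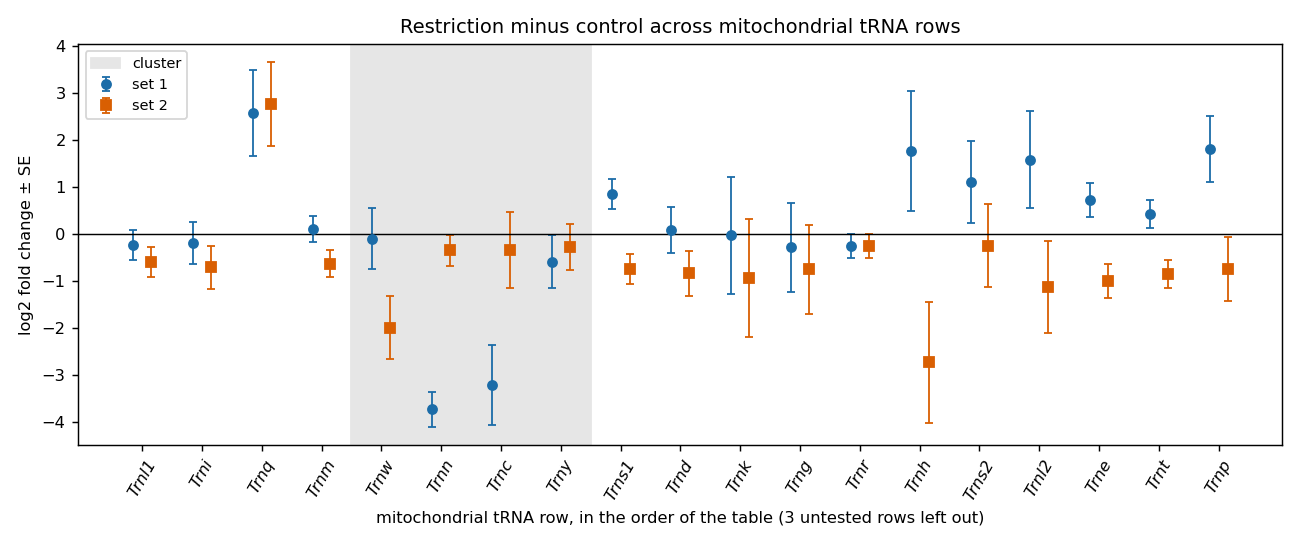
Log2 fold change of restriction minus control with SE, on the vertical axis, for the 19 tested mitochondrial tRNA rows in the order of the table, with set 1 as circles and set 2 as squares. The cluster is shaded. In set 1 Trnn (-3.74) and Trnc (-3.22) lie far below the other rows, and in set 2 they lie at -0.35 and -0.34.

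Between the muscle sets the members went different ways. EdgeR called 39.5% of all tested rows in this comparison, 19.9% higher and 19.6% lower in set 2, so 2 calls among 4 tested members, Trny and Trnn, are close to the share of all rows. Trny was higher, as given above. The value of Trnn averaged over both diets was -0.96 ± 0.24 (SE). It rests on the set 1 controls whose high values chose the cluster, and is given as a description. That average joined opposite values, -2.65 ± 0.34 in control libraries and 0.74 ± 0.35 in restriction libraries. Trnc had -2.16 ± 0.80 and 0.72 ± 0.85, with an average of -0.72 ± 0.59 that likewise joins opposite values and uses the set 1 controls.

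Outside the cluster, averaged over both diets, 6 of 15 tested tRNA rows were called higher in set 2 and 0 lower. Over all tested rows 19.9% were called higher and 19.6% lower. The 6 calls are close to the share called in either direction, 39.5%, though all 6 were higher. The median was 0.94 beside -0.01 over all rows. The 6 rows were Trnm (2.10 ± 0.21, SE), Trnh (2.89 ± 0.93), Trnp (1.86 ± 0.50), Trnl1 (1.29 ± 0.23), Trnd (1.06 ± 0.35) and Trni (0.94 ± 0.32). The rRNA rows rose too, mt-Rnr1 by 0.67 ± 0.17 and mt-Rnr2 by 0.50 ± 0.13. These averages joined unlike values by diet. In control libraries 5 of the 15 tRNA rows were called higher and 0 lower. In restriction libraries 2 were called higher and 2 lower, the latter being Trns1 (-0.91 ± 0.32) and Trnt (-0.895 ± 0.299). The share of all rows called within each diet was not counted, so these counts have no background beside them and are a description. Trnh had 5.14 ± 1.45 in control libraries and 0.635 ± 1.226 in restriction libraries, and Trnp 3.14 ± 0.74 and 0.58 ± 0.68. Trnh was not called by DESeq2 or by limma-voom, or without control 8, restriction 13, restriction 15, control 23 or restriction 32. Without control 8 or without control 23, 3 of these tRNA rows were called higher, in both cases Trnm, Trnl1 and Trnp, and without control 23 Trnt was called lower at -0.49.

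**Figure D4:**
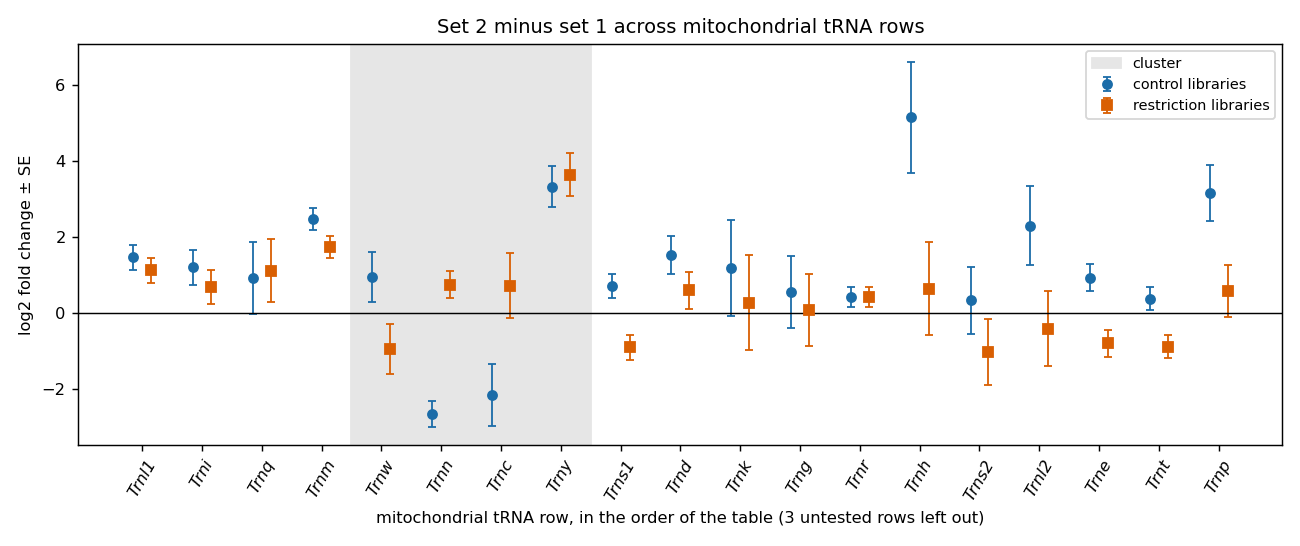
Log2 fold change of set 2 minus set 1 with SE, on the vertical axis, for the 19 tested mitochondrial tRNA rows in the order of the table, in control libraries (circles) and in restriction libraries (squares). The cluster is shaded. Trny is higher in set 2 in both diets (3.32 and 3.63), whereas Trnn and Trnc are lower in control libraries (-2.65 and -2.16) and above 0 in restriction libraries (0.74 and 0.72).

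The nuclear genes that make, cut, modify, protect and charge mitochondrial tRNA were read from 5 lists of 77 genes, of which 74 matched a row and 72 were tested. For diet, edgeR called 0 of 72 in either set, with 7 at an unadjusted p under 0.05 in set 1 and 4 in set 2. DESeq2 and limma-voom called 0 as well. The median log2 fold change was 0.06 in set 1 and -0.12 in set 2, beside 0.00 and -0.01 over all tested rows. In set 1 the smallest p of each list belonged to Trit1, a tRNA modifying enzyme (0.58 ± 0.21, SE), Tbrg4 (-0.41 ± 0.17), Gatb (0.42 ± 0.18), Mterf2 (0.69 ± 0.32) and Trnt1, which adds the CCA end (-0.29 ± 0.18). Their edgeR adjusted p ran from 0.54 to 0.71, none passing.

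In set 2 the smallest p belonged to Lactb2 (-0.54 ± 0.16, SE), Ears2, the glutamate ligase (0.86 ± 0.27), Mterf4 (-0.45 ± 0.18), Fastkd2 (-0.43 ± 0.20) and Yrdc (-0.43 ± 0.22). Their edgeR adjusted p ran from 0.46 to 0.59, none passing. Elac2 and the RNase P genes Trmt10c, Hsd17b10 and Prorp were not called in either set.

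Of the ligases that load the 5 tRNAs of the cluster, Nars2, which attaches asparagine, was at -0.04 ± 0.19 (SE) in set 1 and 0.00 ± 0.19 in set 2. Cars2, the cysteine ligase, was at 0.50 ± 0.22 and 0.10 ± 0.22. Yars2, the tyrosine ligase, was at 0.42 ± 0.27 and -0.56 ± 0.27, Wars2 at 0.10 ± 0.24 and -0.24 ± 0.24, and Aars2 at 0.11 ± 0.16 and 0.05 ± 0.15. None of these 10 diet values passed, with edgeR adjusted p from 0.58 to 1.0. Between sets Aars2 rose in set 2 by 0.72 ± 0.11 (edgeR adjusted p = 0.00014) and the other 4 were not called, among them Yars2 at -0.10 ± 0.19.

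Over the 5 lists, 10 of 72 genes rose in set 2 and 11 fell, which is below the share of all rows called. With library size alone as scaling, which moved the median of all rows to -0.11, the split was 5 and 18. Without restriction 15, or without restriction 33, 6 rose. In transcription and replication Polg, the mitochondrial DNA polymerase (1.05 ± 0.15, SE), and Top1mt (1.34 ± 0.22) rose, and Mterf1 (-0.89 ± 0.17) and Polg2 (-0.88 ± 0.18) fell. Trit1 (0.77 ± 0.14) and Osgepl1 (1.22 ± 0.19) rose and Qtrt2 (-0.76 ± 0.28) fell among modifying enzymes. Rexo2 (-0.65 ± 0.14), Fastk (-0.65 ± 0.15) and Tbrg4 (-0.60 ± 0.12) fell and Lrpprc, which stabilises mitochondrial mRNA, rose (0.32 ± 0.11). Of the 9 genes for cutting and end processing 1 was called, Lactb2, which fell (-0.51 ± 0.11). Of the ligases Aars2, Iars2, Tars2 and Hars2 rose, and Rars2 (-0.76 ± 0.17) and Kars1 (-0.72 ± 0.09) fell.

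Markers of other cells were compared across the same libraries. No macrophage, adipocyte, endothelial or red blood cell marker was called for diet in set 1. In set 1, summed macrophage markers (5 genes) lay between 126 and 200 CPM for controls and between 119 and 307 CPM for restriction libraries, and adipocyte markers (4 genes) between 38.7 and 109 CPM and between 31.7 and 61.3 CPM. All 4 adipocyte markers had a diet value below 0 in set 1, none of them called, and the part of these cells in the Trnn and Trnc values was not tested. Between sets, edgeR called all 5 macrophage and all 4 adipocyte markers lower in set 2, against 19.6% of all tested rows. Of 4 endothelial markers, 3 were called higher in set 2, as Trny was, against 19.9% of all tested rows, and none of the 4 lay below 0. Their sums were 152 to 207 CPM in set 2 against 101 to 144 CPM in set 1. The part of these cells in the Trny values was not tested.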

How the data were processed

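The authors deposited raw counts of reads per gene row, whole numbers from 22829692 to 38313704 in total per library. Per the labels' protocols, Trizol was used for extraction and a TruSeq RNA kit for the libraries, whose reads carry no strand. Reads were trimmed, aligned and counted by the authors: the submitters' processing notes name Trimmomatic, HISAT2, featureCounts, DESeq2 and Rnor_6.0, with no version or counting option. A second deposited table, the counts divided by 1 constant per library, was not used.

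Rows were filtered with filterByExpr over the 4 groups (14225 of 24648 kept), scaled by TMM, and fitted with edgeR 4.0.16 (R 4.3.3) with 1 mean per group over all 12 libraries, quasi-likelihood tests, Benjamini-Hochberg adjustment over all tested rows and a threshold of 0.05. SE is the log2 fold change over the root of the F statistic. The fit was also run on simulated counts, drawn with the spread of this same fit, with changes planted in rows of a mean CPM of at least 1. Its outcome is not given here, and changes in rows below that level were not simulated. Log2 CPM for correlations used a prior count of 2. Gene names of the nuclear lists were matched directly or through synonyms in a RefSeq table of another assembly (GRCr8). The members, lists, design and naming rule were chosen with earlier results of these data known. The rule named all members, neighbouring and called mitochondrial rows and those with the highest and lowest diet effect, up to 4 called genes per nuclear list or, with none called, those with the smallest p, the ligases of the cluster, and the 5 rows most like Trnn and most like the sum of the other members. Alternatives were DESeq2 1.42.0, limma-voom (limma 3.58.1), other scalings and filters, only the libraries of 1 set, a replicate block, and leaving out each library. The block was fitted in limma-voom for diet and in edgeR for the comparison of sets.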

Additional observations from a re-analysis of the deposited data

Results flagged for a closer look

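Trnt, the row of the threonine tRNA outside the cluster, went opposite ways in the 2 sets: all 3 restriction libraries exceeded all 3 controls in set 1 (5.91 to 8.49 against 5.01 to 5.90 CPM), and all 3 were under all 3 controls in set 2 (3.46 to 4.17 against 4.71 to 10.8 CPM). Its diet effect in set 2 minus that in set 1 was -1.27 ± 0.42 (SE) on the log2 scale, which did not pass over all rows (edgeR adjusted p = 0.45). In set 1 alone its diet value was 0.42 ± 0.30. Such an order occurred for 7.97% of all tested rows in set 1 and for 5.72% in set 2. Trnt was found by searching the mitochondrial rows for opposite orders or a called difference between the sets, so this is a description.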

How the results depend on the processing

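The set 1 diet value of Trnn stayed between -3.74 and -3.71 in 9 alternatives and between -3.92 and -3.43 when 1 of 12 libraries was left out. Over both sets it stayed between -2.04 and -1.98, and between -2.14 and -1.89 with 1 library left out. Both contrasts chose the cluster in these same libraries. Their ranges therefore describe the dependence on processing and on single libraries, and are no support for the difference. The call over both sets was lost in limma-voom, both without the replicate block and with it (-2.02). In edgeR it was lost without control 9, restriction 12 or restriction 13. Its set 2 value stayed between -0.35 and -0.25, and between -0.54 and -0.12 with 1 library left out, and never passed (adjusted p from 0.58 to 0.93). On the CPM scale the log2 ratio of means in set 1 was -3.74, against -4.43 as a share of mitochondrial tRNA counts, where leaving out 1 library gave -4.67 to -4.27. In set 2 that share gave 0.33, and 0.00 to 0.69 with 1 library left out. Between sets, Trny was called in 8 of 8 alternatives and in 12 of 12 fits without 1 library. Trnn was too, but its value uses the set 1 controls that chose the cluster, so this says nothing of its stability. With library size alone, 5 nuclear genes rose and 18 fell in set 2. Leaving out 1 library gave 6 to 10 higher and 9 to 16 lower, and 3 to 7 higher and 0 to 1 lower tRNA rows outside the cluster. For diet over both sets DESeq2 called 1 of those rows, Trnq (2.67 ± 0.60 SE, adjusted p = 0.0062), and edgeR 0. DESeq2 also called Trnc in set 1, the contrast used for the choice. Over all rows edgeR called 1 for diet in set 1, DESeq2 38, and limma-voom 3 both without and with the replicate block. EdgeR on set 1 alone called 5, edgeR without a filter 6 and edgeR without control 23, 22. In set 2 edgeR called 0, with 1222 at an unadjusted p under 0.05, DESeq2 40, limma-voom 0, edgeR without a filter 3, without control 23, 4 and without restriction 33, 1. Over both sets the counts were 1 in edgeR, 55 in DESeq2, 0 in limma-voom, 11 without a filter, 8 without control 23, and 0 without control 9, restriction 12 or restriction 13. A mean CPM of at least 1 left Trnc untested.

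Title numbers of the sets differ by a constant (3 and 23, 8 and 28), which no label explains. Deviations of such pairs from their group means correlated by 0.079 to 0.175, above 0.1 in 4 of 6 pairs, and 5 of 6 set 1 libraries correlated best with their own number in set 2, which is a hint from the data alone. With a replicate block on that number in edgeR, 2 members were called between sets, Trny at 3.27 and Trnn at -0.95, and the call of Trnh was lost. That fit called 2906 rows higher and 2896 lower in set 2, of 14225 tested. The Trnn value again uses the set 1 controls that chose the cluster, so its call is a description. With the block in limma-voom, the Trnn set 1 diet value was -3.71. Outside the set 1 controls, counts of at most 72 in Trnn and 22 in Trnc limit what can be seen.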

Other observations

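Trnq, the row of the glutamine tRNA outside the cluster, had higher values in restriction libraries of both sets. In set 1 it measured 0.370, 0.221 and 0.291 CPM in controls and 0.555, 2.30 and 2.48 CPM in restriction libraries. These did not overlap, an order found in 7.97% of tested rows. In set 2 the controls held 1.13, 0.111 and 0.500 CPM and the restriction libraries 0.604, 7.98 and 2.92 CPM, with overlap. The log2 fold changes were 2.58 ± 0.92 and 2.76 ± 0.90 (SE), and neither passed in edgeR (adjusted p = 0.54 and 0.50). Trns1, the serine row that follows the cluster, lay in the opposite order to Trnn within set 1, with 16115 to 21662 CPM for controls and 31573 to 42589 CPM under restriction. That order too was found in 7.97% of tested rows. In set 2 Trns1 held 20070 to 49616 and 12060 to 22551 CPM.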
